A study of Mus musculus with 18 samples.

Results

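Yap1, Wwtr1, Tead1, Ccn1, Ccn2, Ccn3, Amotl2, Ankrd1 and Nuak1 are genes of the YAP-TAZ pathway and of the CCN family, and they were followed across brain endothelial cells of mice with and without endothelial Pdcd10 at 2 oxygen levels. These 9 genes were chosen by name, with earlier results of these data known, out of 57010 genes counted. Of the 9, 8 were abundant enough to be tested among 17531 genes; Ankrd1 was not. The RNA came from brain endothelial cells of mice at postnatal day 57, in 18 libraries. The flox groups were Pdcd10fl/fl; Aldh1l1-EGFP/Rpl10a mice, and the KO groups carried Slco1c1-iCreERT2 in addition, a tamoxifen-regulated Cre of brain endothelium. All groups thus shared the floxed Pdcd10 alleles and an astrocyte reporter. The design gives 50 µg of 4-hydroxytamoxifen at postnatal day 1. It also names driver animals that received no injection as controls, without saying which libraries, if any, came from them. Normoxia was 21% oxygen (4 flox and 5 KO libraries) and hypoxia was 12% oxygen for 7 days (4 flox and 5 KO libraries). Sex is not given, and the labels number the replicates without saying that each was a separate animal, so the p-values measure the spread between these libraries.

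YAP, encoded by Yap1, and TAZ, encoded by Wwtr1, are transcriptional coactivators with no DNA-binding domain of their own. The kinases of the Hippo pathway, MST and LATS, phosphorylate them and hold them in the cytoplasm. When that restraint is low they enter the nucleus and bind TEAD factors such as TEAD1, which recognise the hexamer GGAATG, and genes such as Ccn1, Ccn2, Amotl2 and Ankrd1 are transcribed. Because localisation and phosphorylation set their activity, the RNA of Yap1 or Wwtr1 alone does not report it. CCN proteins are matricellular: they are secreted, bind integrins and heparan sulfate, and shape adhesion, vessel growth and matrix. Pdcd10 encodes CCM3, whose loss in endothelium causes cerebral cavernous malformations. CCM3 is also a part of STRIPAK, a phosphatase and kinase complex that acts on the Hippo kinase MST.

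The promoters of the pathway's coactivators and of its target genes are shown first, with the hexamer that TEAD factors recognise marked. RefSeq promoter windows of 300 bases (250 before and 50 after the transcription start, build GRCm38.p6) were matched by symbol for 6 of the 9 genes: Yap1, Wwtr1, Ccn1, Amotl2, Ankrd1 and Nuak1. Wwtr1 has 2 overlapping windows, and the first is shown. The sequences below run 5′ to 3′ along the gene from base -220 to base -1 before the start, and capitals mark the TEAD hexamer GGAATG or its reverse complement CATTCC. Ccn1 and Amotl2 are the pair of targets whose levels moved together across libraries, and Ankrd1 is the target with almost no reads. Yap1 and Wwtr1 encode the coactivators themselves. The coordinates are chr3:145649986-145650205 (minus strand) for Ccn1, chr9:102717584-102717803 (plus strand) for Amotl2, chr19:36119845-36120064 (minus strand) for Ankrd1, chr9:8004597-8004816 (minus strand) for Yap1 and chr3:57575911-57576130 (minus strand) for Wwtr1.
Ccn1: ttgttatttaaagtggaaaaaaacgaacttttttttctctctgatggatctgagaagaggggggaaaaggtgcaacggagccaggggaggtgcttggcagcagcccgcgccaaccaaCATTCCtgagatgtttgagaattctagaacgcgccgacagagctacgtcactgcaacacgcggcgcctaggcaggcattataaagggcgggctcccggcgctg
Amotl2: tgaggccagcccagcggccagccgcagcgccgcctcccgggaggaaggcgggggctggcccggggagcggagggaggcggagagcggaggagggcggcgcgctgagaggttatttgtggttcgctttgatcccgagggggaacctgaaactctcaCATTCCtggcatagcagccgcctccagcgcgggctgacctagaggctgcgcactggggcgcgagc
Ankrd1: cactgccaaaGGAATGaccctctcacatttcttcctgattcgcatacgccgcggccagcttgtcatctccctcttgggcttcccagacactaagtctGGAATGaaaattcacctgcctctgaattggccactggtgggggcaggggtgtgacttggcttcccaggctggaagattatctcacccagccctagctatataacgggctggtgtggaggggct
Yap1: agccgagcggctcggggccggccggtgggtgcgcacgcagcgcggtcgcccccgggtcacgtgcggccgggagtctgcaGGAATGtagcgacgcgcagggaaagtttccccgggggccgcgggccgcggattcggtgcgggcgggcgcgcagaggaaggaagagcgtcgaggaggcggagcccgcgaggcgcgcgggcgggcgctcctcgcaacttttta
Wwtr1: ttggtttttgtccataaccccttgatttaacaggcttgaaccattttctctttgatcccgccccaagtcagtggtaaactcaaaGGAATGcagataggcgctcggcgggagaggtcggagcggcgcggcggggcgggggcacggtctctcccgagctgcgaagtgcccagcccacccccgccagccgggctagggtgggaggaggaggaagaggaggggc

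On either strand the hexamer was found for 5 of the 6 genes. It lay at bases -103 to -98 of Ccn1 and -65 to -60 of Amotl2, both on the minus strand relative to the gene. On the plus strand it lay at -141 to -136 of Yap1 and at -136 to -131 of Wwtr1 (-170 to -165 counted in its second window). Ankrd1 held the hexamer at 2 places, -210 to -205 and -123 to -118, and the Nuak1 window held none. Over all 32851 RefSeq windows of that length, 14.7% held the hexamer. The AP-1 motif TGANTCA (7.81% of all windows) and the CArG box bound by serum response factor (1.63%) were searched on both strands too and matched no window of the 6 genes, so no hexamer overlapped either motif. These are matches of letters in genes chosen by name, and binding was not measured.

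The libraries held between 17.9 and 31.2 M counted reads each. Pdcd10 itself stood at 39.3 ± 6.14 CPM (SD, n = 4) in normoxia flox, 18.6 ± 1.90 CPM (SD, n = 5) in normoxia KO, 48.0 ± 9.79 CPM (SD, n = 4) in hypoxia flox and 21.3 ± 2.77 CPM (SD, n = 5) in hypoxia KO. CPM, the counts per 1 M of the library total, use totals scaled by TMM. The endothelial label held: 10 marker genes summed to between 13590 and 20430 CPM, none of them at 0. RNA of other cells was present as well. Normoxia flox 4 and normoxia KO 4 carried neuronal RNA, with the synaptic gene Syt1 at 838 and 471 CPM against at most 8.68 CPM elsewhere. They carried astrocyte RNA too: astrocyte markers summed to 2311 and 1292 CPM in them, against at most 280 CPM elsewhere. Oligodendrocyte markers were present in every library, with sums between 649 and 5370 CPM. Normoxia flox 3, normoxia flox 4 and normoxia KO 4 held both Xist and Y-linked transcripts. In hypoxia the sex genes moved with genotype: all 4 flox libraries had 4 Y-linked genes summing to 232 CPM or more, while 4 of 5 KO libraries had 0.916 CPM or less, and Xist at 669 CPM or more. The exception was hypoxia KO 4. In these bulk libraries fewer cells of a type and less RNA per cell cannot be told apart.

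Compared per length, as RPKM (reads scaled by gene length and library total), Ccn1 was the most abundant of the 9 genes, with a median of 499 RPKM over the 18 libraries. Wwtr1 followed at 92.8 RPKM, Amotl2 at 50.2, Ccn2 at 35.7, Yap1 at 13.2, Nuak1 at 10.5, Tead1 at 7.65 and Ccn3 at 2.75. Ankrd1 had a median of 0 RPKM. TAZ was thus the more abundant coactivator transcript, and neighbours in this order were not always separate. Ccn1 exceeded Wwtr1, Wwtr1 exceeded Amotl2, Ccn2 exceeded Yap1 and Ccn3 exceeded Ankrd1 in 18 of 18 libraries. Amotl2 exceeded Ccn2, and Nuak1 exceeded Tead1, in 15 of 18. Yap1 exceeded Nuak1, and Tead1 exceeded Ccn3, in 13 of 18. The spread differed as much as the level: the highest library over the lowest in CPM was 24.5 for Ccn3 and 15.1 for Ccn1, but 1.55 for Yap1.

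**Figure D1:**
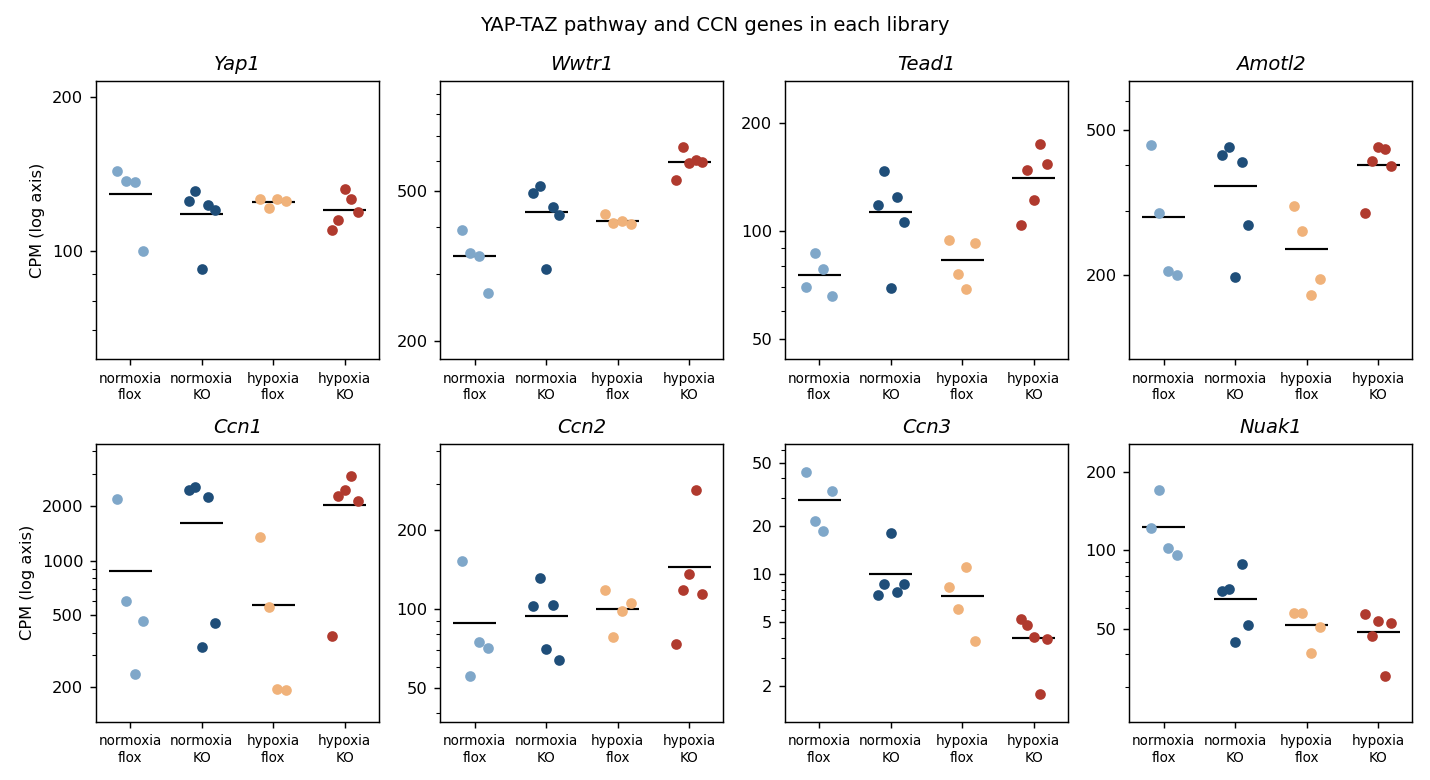
CPM (log axis) of the 8 tested genes in each of the 18 libraries, by group; each point is a library and each line a group mean. Wwtr1 and Tead1 are highest in hypoxia KO, Ccn3 and Nuak1 are highest in normoxia flox, and Ccn1 falls into a high and a low set of libraries within every group.

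The first comparison asked how the genes differed between KO and flox in room air. TAZ and TEAD1 transcripts were higher in KO, and the matricellular gene Ccn3 and the kinase gene Nuak1 were lower. Of the 8 genes tested, 2 rose and 2 fell at an adjusted p under 0.05 (edgeR quasi-likelihood test, Benjamini-Hochberg adjustment over 17531 genes). Over all genes 16.6% passed in this comparison, 9.54% higher and 7.03% lower. The median log2 fold change of the 8 genes was 0.19, against -0.02 over all genes. In hypoxia 2 of the 8 rose and none fell, with 22.3% of all genes passing, 11.4% higher and 11% lower, and medians of 0.53 and 0. At an unadjusted p under 0.05, 4 and 5 of the 8 passed (28.9% and 34.6% of all genes).

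Wwtr1, the gene of TAZ, differed between genotypes at both oxygen levels. Its level was 392, 342, 336 and 268 CPM in normoxia flox 1 to 4, and 494, 515, 309, 452 and 430 CPM in normoxia KO 1, 2, 4, 5 and 6. All but normoxia KO 4 lay above the flox range. In hypoxia flox 2 to 5 it was 433, 410, 415 and 408 CPM, and in hypoxia KO 1 to 5 it was 534, 651, 592, 601 and 594 CPM. These groups did not overlap, as in 22.3% of all genes. The log2 fold change in normoxia was 0.39 ± 0.13 (SE), or 1.31-fold (edgeR adjusted p = 0.042). In hypoxia it was 0.51 ± 0.13, or 1.43-fold (edgeR adjusted p = 0.00856). The normoxia call was near the threshold and was lost in 19 of 33 processing alternatives, 13 of them leaving out 1 library (adjusted p between 0.053 and 0.169), at values between 0.28 and 0.50 in all 33. Of the 18 single libraries left out, it held for normoxia flox 1, normoxia KO 4 and hypoxia KO 1, 2 and 4. Without the 2 libraries with neuronal RNA it was 0.37 ± 0.08 (edgeR adjusted p = 0.00452). The hypoxia call was kept in all 32 alternatives, at 0.36 to 0.69.

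Tead1 encodes the TEAD factor that carries YAP and TAZ to DNA, and it moved in the same directions as Wwtr1. Its levels in normoxia flox 1 to 4 were 69.7, 87.2, 78.3 and 66.0 CPM, and in normoxia KO 1, 2, 4, 5 and 6 they were 118, 147, 69.6, 125 and 106 CPM. Again only normoxia KO 4 lay within the flox range. Hypoxia flox 2 to 5 had 94.8, 76.2, 69.1 and 92.6 CPM, and hypoxia KO 1 to 5 had 104, 148, 122, 175 and 154 CPM, without overlap. The log2 fold changes were 0.59 ± 0.19 in normoxia (edgeR adjusted p = 0.0401) and 0.76 ± 0.19 in hypoxia (edgeR adjusted p = 0.00864). The normoxia call was lost in 21 of 33 alternatives, 12 of them leaving out 1 library (adjusted p between 0.0506 and 0.133), with values of 0.46 to 0.70 throughout. Of the single libraries left out, it held for normoxia KO 4, hypoxia flox 4 and hypoxia KO 1, 3, 4 and 5. In hypoxia the alternative with non-endothelial markers as a covariate gave 0.82 ± 0.27 (edgeR adjusted p = 0.0513). With the sex genes as a covariate, since these differed between the hypoxia groups, Tead1 was at 0.88 ± 0.22 and Wwtr1 at 0.63 ± 0.15 in hypoxia (edgeR adjusted p = 0.013 and 0.00981).

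Yap1, the gene of the other coactivator, was the steadiest of the 8. Its levels were 143, 137, 136 and 100 CPM in normoxia flox 1 to 4, and 125, 131, 92.3, 123 and 120 CPM in normoxia KO 1, 2, 4, 5 and 6. In hypoxia they were 126, 121, 126 and 125 CPM in flox 2 to 5 and 110, 115, 132, 126 and 119 CPM in KO 1 to 5. The low library of each normoxia group was the one with neuronal RNA. The log2 fold change was -0.12 ± 0.11 in normoxia (95% interval -0.35 to 0.10, edgeR adjusted p = 0.495) and -0.05 ± 0.11 in hypoxia (interval -0.27 to 0.18, edgeR adjusted p = 0.799). Without the 2 neuronal libraries Yap1 was at -0.19 ± 0.06 in normoxia (edgeR adjusted p = 0.0415).

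**Figure D2:**
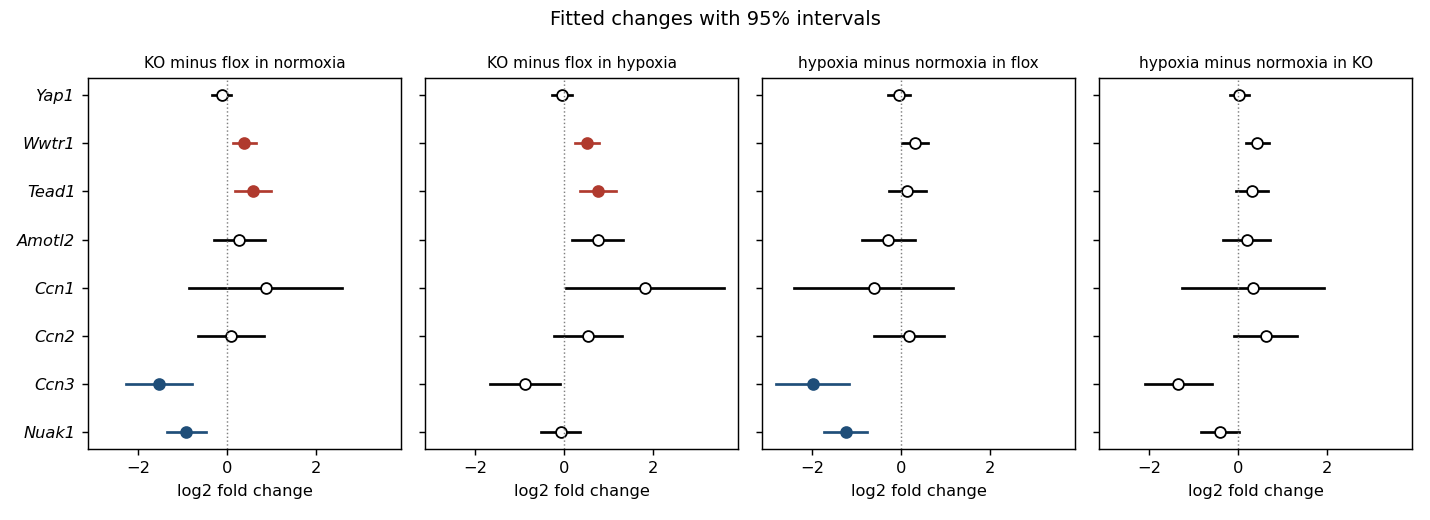
Fitted log2 fold changes of the 8 tested genes in 4 comparisons; bars are 95% intervals, filled red points passed as higher and filled blue points as lower, and open points did not pass an adjusted p of 0.05. Wwtr1 and Tead1 pass in both genotype comparisons, and Ccn3 and Nuak1 pass in normoxia between genotypes and in flox between oxygen levels.

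Pericyte and smooth muscle markers also moved with genotype, and their part in the values of Wwtr1 and Tead1 was not tested. The marker covariate above was the first component of all non-endothelial lists together and does not single out either cell type. Of 10 pericyte markers, 3 were higher in KO in normoxia and 6 in hypoxia, where 16.6% and 22.3% of all genes passed. Their summed level was 406 to 1372 CPM in normoxia flox, 781 to 1421 CPM in normoxia KO, 223 to 1125 CPM in hypoxia flox and 1312 to 2271 CPM in hypoxia KO. Of 10 smooth muscle markers, 7 were lower and 1 higher in KO at each oxygen level, against the same shares of all genes. Their sum was 647 to 1154 CPM and 527 to 836 CPM in the flox groups, and 298 to 337 CPM and 262 to 426 CPM in the KO groups of normoxia and hypoxia. No pericyte or smooth muscle marker was at 0 in any library. Of 9 tested fibroblast markers, 1 was higher in KO in normoxia and 3 in hypoxia, against the same shares of all genes. Their sum was 25.5 to 949 CPM in normoxia flox and 42.8 to 123 CPM in normoxia KO. In hypoxia it was 13.4 to 469 CPM in flox and 44.7 to 157 CPM in KO. The part of fibroblast RNA in the values of Wwtr1 and Tead1 was not tested.

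Ccn3 and Nuak1 changed the other way. Ccn3, formerly Nov, encodes a matricellular protein with roles in vascular cells. It stood at 43.9, 21.5, 18.6 and 33.1 CPM in normoxia flox 1 to 4 and at 7.39, 8.75, 18.1, 7.70 and 8.69 CPM in normoxia KO 1, 2, 4, 5 and 6. The groups did not overlap (14.7% of all genes did not), although normoxia KO 4 came close to normoxia flox 3. The log2 fold change was -1.53 ± 0.35, a level of 0.346 relative to flox (edgeR adjusted p = 0.0066). The call held in all 33 alternatives, between -2.05 and -1.29. In hypoxia Ccn3 was low in both genotypes, at 8.34, 6.11, 11.1 and 3.82 CPM in flox 2 to 5 and 5.28, 4.85, 4.05, 1.79 and 3.93 CPM in KO 1 to 5. The difference there was -0.89 ± 0.37 (95% interval -1.68 to -0.10), which did not pass (edgeR adjusted p = 0.101). It passed in 1 of 32 alternatives, the one without normoxia flox 3, normoxia flox 4 and normoxia KO 4 (edgeR adjusted p = 0.0467).

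Nuak1 encodes an AMPK-related kinase that acts on adhesion and on myosin phosphatase. Its levels were 122, 171, 102 and 96.3 CPM in normoxia flox 1 to 4 and 69.9, 70.9, 44.5, 88.3 and 51.7 CPM in normoxia KO 1, 2, 4, 5 and 6, without overlap. The log2 fold change was -0.92 ± 0.21, a level of 0.530 relative to flox (edgeR adjusted p = 0.00642), and it passed in all 33 alternatives. In hypoxia flox 2 to 5 it was 57.6, 57.5, 40.5 and 50.9 CPM and in hypoxia KO 1 to 5 it was 57, 46.9, 53.7, 33.0 and 52.7 CPM. These groups overlapped, at -0.08 ± 0.21 (95% interval -0.53 to 0.36, edgeR adjusted p = 0.828). The smooth muscle markers were lower in KO alongside Ccn3 and Nuak1 in normoxia, which was not tested as a source. The first component of all non-endothelial markers together does not single out smooth muscle. With it as a covariate, Ccn3 was at -1.73 ± 0.39 (edgeR adjusted p = 0.00596) and Nuak1 at -0.84 ± 0.24 (edgeR adjusted p = 0.0239).

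The next comparison asked what hypoxia did within each genotype. In flox, Ccn3 and Nuak1 fell and no gene of the 8 rose, against 2.81% of all genes passing (2.34% higher and 0.462% lower). Ccn3 changed by -1.99 ± 0.39, a level of 0.251 relative to normoxia (edgeR adjusted p = 0.00692). Nuak1 changed by -1.25 ± 0.23, a level of 0.421 (edgeR adjusted p = 0.00382). Both groups of libraries were separate for both genes, as they were for Wwtr1, and 8.5% of all genes showed no overlap. Ccn3 missed the threshold with only those 2 groups in the fit (-2.01 ± 0.39, edgeR adjusted p = 0.0506), and Nuak1 passed in all 32 alternatives. Of the 10 smooth muscle markers none passed here with edgeR or DESeq2, and 3 had an unadjusted p under 0.05. Fibroblast and microglia markers had median log2 changes of -1.39 over 9 tested and -2.96 over 10. None of them passed with edgeR, 5 and 6 had an unadjusted p under 0.05, and 1 and 2 passed as lower with DESeq2. The fibroblast sum was 25.5 to 949 CPM in normoxia flox, highest in normoxia flox 1, and 13.4 to 469 CPM in hypoxia flox. The microglia sum was 23.9 to 189 CPM, highest in normoxia flox 4, and 21.8 to 30.7 CPM. Their part in the values was not tested. Without normoxia flox 1, which had the highest Ccn3, Ccn3 was at -1.73 ± 0.38 and Nuak1 at -1.26 ± 0.25 (edgeR adjusted p = 0.0258 and 0.0125). Without the 2 neuronal libraries the values were -1.94 ± 0.36 for Ccn3 (edgeR adjusted p = 0.0059) and -1.36 ± 0.22 for Nuak1 (edgeR adjusted p = 0.00167).

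In KO, none of the 8 genes passed between hypoxia and normoxia with edgeR (1.48% of all genes did, 0.713% higher and 0.77% lower), 2 had an unadjusted p under 0.05 (14.2% of all genes) and 2 passed with DESeq2. Those 2 genes were Ccn3 and Wwtr1, and the libraries of both were separate between oxygen levels (3.83% of all genes). Ccn3 was at -1.35 ± 0.35 with edgeR (adjusted p = 0.0725) and -1.32 ± 0.35 with DESeq2 (adjusted p = 0.00794). Wwtr1 was at 0.43 ± 0.12 (edgeR adjusted p = 0.0866), after 0.32 ± 0.13 in flox (edgeR adjusted p = 0.233). It passed in 7 of 32 alternatives in KO, among them the one without the 2 neuronal libraries (0.35 ± 0.07, edgeR adjusted p = 0.0233) and the one without normoxia flox 4 alone (0.44 ± 0.11, edgeR adjusted p = 0.0461). Nuak1 was at -0.42 ± 0.20 (95% interval -0.84 to 0.01, edgeR adjusted p = 0.357). Yap1 was at -0.05 ± 0.11 in flox and 0.02 ± 0.10 in KO (edgeR adjusted p = 0.892 and 0.938). Tead1 was at 0.14 ± 0.20 and 0.31 ± 0.17 (edgeR adjusted p = 0.80 and 0.433).

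Whether the genotype difference changed with oxygen was tested as an interaction, and none of the 8 genes passed (0.439% of all genes did, with edgeR, and none of the 8 passed in any of 31 alternatives, DESeq2 included). Nuak1 was the 1 gene with an unadjusted p under 0.05 (5.48% of all genes). Its interaction was 0.83 ± 0.30 (edgeR adjusted p = 0.604). For Ccn3 it was 0.64 ± 0.52 (95% interval -0.45 to 1.73) and for Wwtr1 0.12 ± 0.18 (interval -0.26 to 0.50). A pass in normoxia and none in hypoxia is therefore not shown to be a difference for Ccn3 or Nuak1. The comparisons share groups, so a high normoxia flox level enters both the genotype and the oxygen value of these genes.

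The target genes Ccn1, Ccn2 and Amotl2 varied within groups as much as between them. Ccn1, formerly Cyr61, encodes a secreted integrin ligand and is a classic YAP-TAZ target. It stood at 2195, 599, 237 and 466 CPM in normoxia flox 1 to 4 and at 2455, 2532, 335, 2247 and 453 CPM in normoxia KO 1, 2, 4, 5 and 6. In hypoxia it was 1342, 557, 195 and 194 CPM in flox 2 to 5 and 382, 2266, 2437, 2935 and 2130 CPM in KO 1 to 5. Every group thus held both high and low libraries. The log2 fold change between genotypes was 0.88 ± 0.81 in normoxia (95% interval -0.85 to 2.60, edgeR adjusted p = 0.535) and 1.83 ± 0.84 in hypoxia (interval 0.04 to 3.61, edgeR adjusted p = 0.135). Neither passed, and the intervals leave room for a large difference. The oxygen values were -0.61 ± 0.84 in flox and 0.34 ± 0.75 in KO (edgeR adjusted p = 0.803 and 0.88). Single libraries moved these values without a pass: without normoxia flox 1 the normoxia difference was 1.87 ± 0.86 and the flox oxygen value 0.40 ± 0.84 (edgeR adjusted p = 0.176 and 0.87). Without hypoxia flox 2 they were 0.85 ± 0.76 and -1.48 ± 0.89, and the hypoxia difference was 2.68 ± 0.93 (edgeR adjusted p = 0.521, 0.446 and 0.051).

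Amotl2 encodes angiomotin-like 2, a junction protein that binds YAP and is also induced by it. Its levels were 454, 296, 206 and 200 CPM in normoxia flox 1 to 4 and 428, 450, 198, 409 and 274 CPM in normoxia KO 1, 2, 4, 5 and 6. They were 309, 264, 177 and 196 CPM in hypoxia flox 2 to 5 and 297, 412, 450, 443 and 399 CPM in hypoxia KO 1 to 5. In hypoxia only KO 1 lay within the flox range. The difference there was 0.76 ± 0.27 (95% interval 0.18 to 1.34) and did not pass (edgeR adjusted p = 0.0564), but it passed in 10 of 32 alternatives. Those 10 included DESeq2 (adjusted p = 0.0295) and leaving out normoxia flox 1, normoxia KO 4, hypoxia flox 2 or hypoxia KO 1 (0.75 to 0.92, edgeR adjusted p between 0.0356 and 0.0416). In normoxia it was 0.28 ± 0.27 (interval -0.29 to 0.86, edgeR adjusted p = 0.547).

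Ccn2, formerly Ctgf, encodes connective tissue growth factor. It stood at 153, 55.7, 75.0 and 71.2 CPM in normoxia flox 1 to 4 and at 103, 131, 70.2, 104 and 63.8 CPM in normoxia KO 1, 2, 4, 5 and 6. In hypoxia it was 118, 78.2, 98.6 and 105 CPM in flox 2 to 5 and 73.3, 118, 136, 285 and 114 CPM in KO 1 to 5. The highest value was in hypoxia KO 4, which also had the lowest Ccn3. Its Y-linked genes summed to 226 CPM, against 0.916 CPM or less in the other hypoxia KO libraries. No comparison passed for Ccn2, with 0.09 ± 0.36 in normoxia and 0.54 ± 0.36 in hypoxia between genotypes (edgeR adjusted p = 0.896 and 0.312). With the sex genes as a covariate the hypoxia value was 1.18 ± 0.27 (edgeR adjusted p = 0.0078). Without hypoxia KO 4 it was 0.14 ± 0.30 (edgeR adjusted p = 0.807).

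The libraries high in Ccn1 were those high in immediate early genes, a list of 12 genes such as Fos that respond to tissue dissociation within minutes. The mean log2 CPM of this list was 10.20 to 10.83 in 9 libraries (normoxia flox 1, normoxia KO 1, 2 and 5, hypoxia flox 2, hypoxia KO 2 to 5) and 6.73 to 8.99 in the other 9. Of the 9 high libraries 7 were KO. The 12 genes had median genotype differences of 0.89 in normoxia and 1.33 in hypoxia; none of the 12 passed with edgeR or DESeq2, and 0 had an unadjusted p under 0.05. Each set of 9 pooled libraries of all 4 groups, and the permutations below ignored group. Within the 9 low libraries Ccn1 followed the list closely, with Pearson r = 0.97 (exact permutation p = 6.06e-05, adjusted over 16 relations p = 0.00097) and Spearman rho = 0.97 (exact permutation p = 0.000165). Without the 2 libraries farthest from the median r was again 0.97. Within the 9 high libraries r was 0.79 and rho 0.57 (exact permutation p = 0.0846 and 0.115), and r fell to 0.11 without the 2 farthest, so that relation rested on those libraries. For Amotl2 r was 0.65 in the low and 0.85 in the high libraries, and rho 0.52 and 0.54 (exact permutation p = 0.0672 and 0.0457 for r, 0.269 and 0.244 adjusted). Its r fell to 0.43 and 0.41 without the 2 farthest libraries of each set. Ccn2 did not climb with the list within either set: r was -0.72 in the low and -0.09 in the high libraries (exact permutation p = 0.026 and 0.632, adjusted 0.208 and 0.843), and rho was -0.67 and -0.21 (exact permutation p = 0.0589 and 0.59). Wwtr1 did not either, with r = -0.19 and 0.21 (exact permutation p = 0.627 and 0.60) and rho = -0.13 and 0.00.

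**Figure D3:**
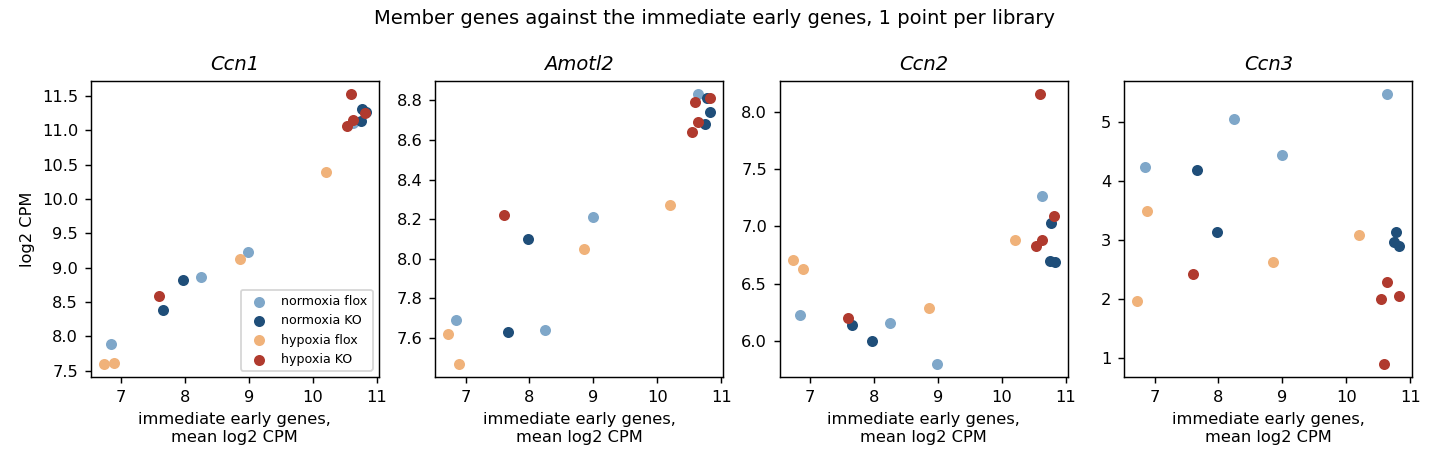
Log2 CPM of Ccn1, Amotl2, Ccn2 and Ccn3 (vertical axes) against the mean log2 CPM of 12 immediate early genes (horizontal axis), 1 point per library, coloured by group. The libraries form a low set (6.73 to 8.99) and a high set (10.20 to 10.83); Ccn1 climbs with the score through the low set, while Ccn3 is highest in normoxia flox and shows no such climb.

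In a model with the 4 groups and the immediate early score, the slope (log2 per log2) was 0.85 ± 0.03 for Ccn1 (edgeR adjusted p = 3.21e-11) and 0.26 ± 0.03 for Amotl2 (edgeR adjusted p = 8.54e-06). It was 0.22 ± 0.08 for Ccn2 and 0.08 ± 0.03 for Wwtr1 (edgeR adjusted p = 0.0375 and 0.0331), which the values within the 2 sets do not show. Slopes of the 4 other genes did not pass: 0.10 ± 0.04 for Tead1, 0.05 ± 0.02 for Yap1, 0.10 ± 0.05 for Nuak1 and -0.04 ± 0.09 for Ccn3. Such a slope passed in 31.5% of all genes, with a positive slope in 14.9%. Ccn2 missed the threshold without the 2 neuronal libraries (0.23 ± 0.09, edgeR adjusted p = 0.067), where 37.1% of all genes passed, 20% of all genes with a positive slope. With the score as a covariate the hypoxia genotype difference of Ccn1 was 0.45 ± 0.13 in place of 1.83, and its adjusted p was 0.0229 with edgeR. That of Amotl2 was 0.31 ± 0.12 in place of 0.76 (edgeR adjusted p = 0.0845). In normoxia they were 0.12 ± 0.12 and 0.06 ± 0.11. Wwtr1 kept 0.32 ± 0.11 in normoxia and 0.36 ± 0.11 in hypoxia (edgeR adjusted p = 0.0446 and 0.0334). Tead1 was at 0.46 ± 0.17 and 0.55 ± 0.18 (0.064 and 0.0412). Since 7 of the 9 libraries with a high score were KO, the part of Ccn1 that goes with it and the part that goes with genotype cannot be fully told apart in 18 libraries.

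Ankrd1, which encodes an ankyrin-repeat cofactor of striated muscle and is among the most used YAP-TAZ reporters, was nearly absent. It had 1 read in all of normoxia flox, with 3 of 4 libraries at 0, and 16 reads in normoxia KO, 17 in hypoxia flox and 29 in hypoxia KO. The highest single library had 13 reads, in hypoxia flox. In a fit of 37425 genes without the filter on low counts no comparison passed: normoxia KO against flox gave an edgeR adjusted p of 0.252 and hypoxia against normoxia in flox one of 0.312. The fitted values were 2.99 ± 1.32 and 3.57 ± 1.28 on the log2 scale. Against a group with 1 read such a value depends on the prior count and gives no bound.

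The genes whose log2 CPM most resembled each member across the 18 libraries were ranked by Pearson r among 12527 other genes, as a description, since libraries share depth, immediate early level and group. Ccn1 was most like the immediate early genes Atf3 (0.993), Fos (0.992) and Nr4a1 (0.991). Amotl2 was nearest to Klf4 (0.965), Alkbh5 (0.963) and Smarca5 (0.961). Wwtr1 was nearest to Tcf4 (0.961) and Apaf1 (0.960), and Tead1 to Zc3h12c (0.937), Stk35 (0.935) and Apaf1 (0.934). Yap1 was nearest to the junction gene Tjp1 (0.942), then Trappc8 (0.935) and Zfx (0.933). Ccn2 was nearest to Pfkfb3 (0.932), Tmem251 (0.926) and Arih2 (0.865), and Ccn3 to Glce (0.901), Atp2b4 (0.901) and Glul (0.899). Nuak1 was nearest to Mfap1b (0.868) and Mfap1a (0.842), a pair of near-identical copies whose reads are uncertain, and to Prickle1 (0.83).

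Upstream of YAP and TAZ, the list of Hippo kinases and their regulators changed in both directions. Of 19 genes 4 rose and 3 fell in normoxia KO, and 2 rose and 3 fell in hypoxia KO, with medians of 0.05 and 0.17, where 16.6% and 22.3% of all genes passed. Ajuba, whose LIM protein restrains LATS kinases, rose most, by 1.39 ± 0.17 in normoxia and 1.62 ± 0.17 in hypoxia (edgeR adjusted p = 2.94e-05 and 9.72e-06). Nf2, the gene of merlin, an upstream activator of the pathway, fell by 0.29 ± 0.06 and 0.22 ± 0.06 on the log2 scale (edgeR adjusted p = 0.00471 and 0.0204). The protocadherin gene Fat4 fell by 0.68 ± 0.16 and 0.57 ± 0.16, while Dchs1, which encodes its ligand, rose by 0.57 ± 0.13 in normoxia (edgeR adjusted p = 0.0087, 0.019 and 0.00496). The TAO kinase genes moved apart: Taok3 rose by 0.47 ± 0.13 and 0.71 ± 0.13, and Taok2 fell by 0.29 ± 0.09 and 0.54 ± 0.09. The core kinase Stk3 (MST2) rose by 0.35 ± 0.11 in normoxia (edgeR adjusted p = 0.0429). Lats1 (-0.02 ± 0.17 and 0.13 ± 0.17), Lats2 (0.05 ± 0.14 and 0.31 ± 0.14) and Stk4 (0.19 ± 0.13 and 0.21 ± 0.13) did not pass. In the fit of normoxia pairs 1, 2 and 4 the list had 3 calls in place of 7.

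Of 13 tested nuclear partners and retention factors, 4 rose and 3 fell in normoxia KO and 3 rose and 1 fell in hypoxia KO (Vgll2 was not tested), where 16.6% and 22.3% of all genes passed. Vgll4, a competitor of YAP for TEAD, rose by 0.85 ± 0.17 and 0.76 ± 0.17 (edgeR adjusted p = 0.00204 and 0.00424). Amot, the angiomotin gene, fell by 0.75 ± 0.14 and 0.89 ± 0.14 (edgeR adjusted p = 0.00164 and 0.000424), and Amotl1 rose by 0.33 ± 0.09 in normoxia (0.0181). Among the other TEAD genes, in normoxia Tead2 rose by 0.59 ± 0.18 and Tead3 fell by 0.71 ± 0.17 (edgeR adjusted p = 0.0311 and 0.00956). Tead4 was at 0.19 ± 0.12 and 0.24 ± 0.12 without passing. Csnk1e, a casein kinase gene, rose by 0.31 ± 0.09 and 0.57 ± 0.09, and the 14-3-3 gene Ywhaz by 0.42 ± 0.09 in hypoxia. Without the filter on low counts this list had 3 calls in normoxia in place of 7, and in the fit of normoxia pairs it had 4. In STRIPAK, the complex that holds CCM3, Stk24, the gene of the kinase MST3 that binds CCM3, rose by 0.30 ± 0.09 and 0.31 ± 0.09 (edgeR adjusted p = 0.0279 and 0.018).

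Downstream, 18 genes of a YAP-TAZ target signature were read outside the 9. In normoxia KO 1 rose and 3 fell, and in hypoxia KO 5 rose and 1 fell, with medians of -0.24 and 0.50, where 16.6% and 22.3% of all genes passed. Tgfb2, a transforming growth factor gene, fell at both levels, by 1.36 ± 0.14 and 1.21 ± 0.14 (edgeR adjusted p = 6.81e-06 and 2.79e-05). Ccdc80, a matrix protein gene, rose at both, by 1.83 ± 0.36 and 2.05 ± 0.39 (edgeR adjusted p = 0.00184 and 0.00146). Igfbp3 fell by 1.99 ± 0.41 in normoxia (edgeR adjusted p = 0.0033), as did Ptpn14, by 0.41 ± 0.13. In hypoxia Crim1 rose by 0.80 ± 0.14, Arhgef17 by 1.25 ± 0.34, Dock5 by 1.00 ± 0.34 and Asap1 by 0.45 ± 0.10 (edgeR adjusted p between 0.0007 and 0.048). Axl, F3 and Lats2 did not pass, and no gene of the list had an interaction that passed. The signature thus did not move in 1 direction. The part of pericyte, smooth muscle or fibroblast RNA in these values was not tested.

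Of the other CCN genes, Ccn4 resembled Ccn3 in normoxia. It stood at 4.16 ± 0.872 CPM in normoxia flox (SD, n = 4) and 1.60 ± 0.820 CPM in normoxia KO (SD, n = 5), a change of -1.40 ± 0.32 (edgeR adjusted p = 0.00642). In hypoxia it was 2.74 ± 0.778 and 1.49 ± 0.522 CPM, a value of -0.87 ± 0.34 (edgeR adjusted p = 0.0735). Ccn5 passed as higher in normoxia KO (2.94 ± 0.83, edgeR adjusted p = 0.0178), but on few reads, at 0.0602 ± 0.0673 CPM in flox and 0.469 ± 0.0852 CPM in KO. It was left out by a filter of 1 CPM in 4 libraries. In the fit of normoxia pairs 1 of these 2 genes passed, as lower. Ccn6 was not tested.

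CCN proteins signal through integrins and coreceptors, and of 15 such genes and binding partners 3 rose and 1 fell in normoxia KO and 8 rose and 1 fell in hypoxia KO, with medians of 0.31 and 0.79, where 16.6% and 22.3% of all genes passed. Itgb1, the β1 integrin gene, rose by 0.41 ± 0.09 and 0.34 ± 0.09, Tgfb1 by 0.66 ± 0.10 and 0.50 ± 0.10, and Bmp4 by 0.67 ± 0.17 and 0.85 ± 0.17 (edgeR adjusted p between 0.000337 and 0.0118). In hypoxia the αv and β3 integrin genes rose together, Itgav by 0.79 ± 0.24 and Itgb3 by 0.91 ± 0.24 (edgeR adjusted p = 0.0247 and 0.0113). Itgb2 and Itgam, which encode the leukocyte integrin αMβ2, rose by 3.76 ± 0.84 and 3.33 ± 1.13. Itgam is also among the 10 microglia and macrophage markers. Of these 10, 2 rose in hypoxia KO, Itgam itself and Ptprc, where 22.3% of all genes passed. The 10 markers summed to 39.0 to 121 CPM there against 21.8 to 30.7 CPM in hypoxia flox. The part of such cells in the integrin values was not tested. Between oxygen levels, 1 gene of this list passed with edgeR, Itga6 in KO, which rose by 0.55 ± 0.13 (edgeR adjusted p = 0.0414). With DESeq2, 1 of the 15 passed as higher and 2 as lower in flox, and 4 as higher in KO. Of the 19 Hippo genes none passed between oxygen levels with edgeR, where 2.81% of all genes passed in flox and 1.48% in KO. In each genotype 3 of the 19 had an unadjusted p under 0.05, against 17.8% of all genes in flox and 14.2% in KO. With DESeq2, 1 of the 19 passed as higher in each genotype. The DESeq2 shares over all genes are not given here.

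**Figure D4:**
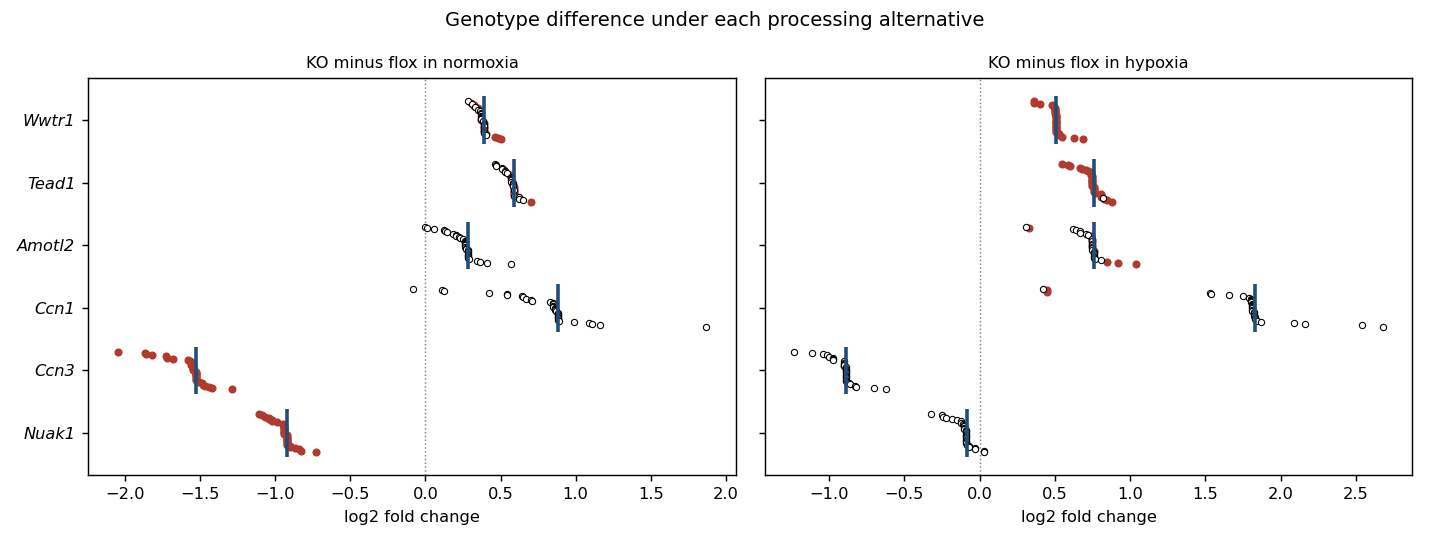
Genotype log2 fold changes of 6 genes in normoxia (left) and hypoxia (right) under every processing alternative; each point is 1 alternative, filled red where its adjusted p was under 0.05 and open where it was not, and the blue bar is the reported value. All points of Ccn3 and Nuak1 in normoxia and of Wwtr1 in hypoxia are filled, whereas those of Wwtr1 and Tead1 in normoxia are mixed.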

How the data were processed

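RNA of isolated brain endothelial cells was sequenced from a stranded mRNA kit. The deposited counts are whole reads per Ensembl gene and the deposited RPKM were scaled by the authors by gene length and library total. Per the submitters' processing notes, HISAT2, edgeR and the build GRCm39 were used; versions, the counter and its strand setting are not given in the sources used here, so overlapping antisense genes are uncertain. Symbols were matched for 91.3% of identifiers. Counts were tested in R 4.3.3 with edgeR 4.0.16: filterByExpr, TMM, glmQLFit (robust, legacy=FALSE) on 4 groups, glmQLFTest, and Benjamini-Hochberg adjustment over 17531 genes at 0.05. SE is the log2 fold change over the square root of F. log2 CPM use a prior count of 2. Alternatives were RLE scaling, no filter, a filter of 1 CPM in 4 libraries, DESeq2 1.42.0, the legacy fit, 2 groups only, limma 3.58.1 on log2(RPKM + 0.1), the replicate block, covariates (immediate early genes, non-endothelial markers, sex genes) and left-out libraries. The code was tested on simulated data.

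The 9 genes and all lists were chosen with earlier results of these data known. The text names the 9 genes, up to 4 passing genes per list and comparison with the smallest adjusted p, the 3 genes of most like pattern per member, and Pdcd10, Fos and Syt1 as checks; some results under this rule are not reported here. Other genes were named after their values were seen: Stk3, Lats1, Lats2, Stk4, Tead2, Tead4, Arhgef17, Dock5, Axl, F3, Itgb3, Itgav and Itgam. No pair of libraries agreed within sampling noise. Same-numbered libraries of the 2 genotypes in normoxia had positive r between their deviations (0.579, 0.294 and 0.847 for pairs 1, 2 and 4 across genes). Both libraries of pair 4 carried neuronal RNA, whose part in that r was not tested. The labels do not say that the numbers pair the samples, so these pairs are an assumption. In the block over these pairs, without normoxia flox 3 and normoxia KO 5 and 6, 3 of the 8 genes passed: Wwtr1 stayed at 0.35 ± 0.09 (edgeR adjusted p = 0.0272), and Tead1 was lost, at 0.51 ± 0.20 (edgeR adjusted p = 0.133).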

Additional observations from a re-analysis of the deposited data

Results flagged for a closer look

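In 6 of 32 sets of libraries (8 genes in 4 groups) 1 library stood apart from the rest of its group by Dixon's criterion at the 95% level, which chance alone reaches in about 1 group in 20. Yap1 was low in both libraries with neuronal RNA, at 100 CPM in normoxia flox 4 against 136 to 143 CPM and at 92.3 CPM in normoxia KO 4 against 120 to 131 CPM. Ccn3 was high in normoxia KO 4, at 18.1 CPM against 7.39 to 8.75 CPM. Hypoxia KO 1, the hypoxia KO library with the lowest immediate early score (7.60 against 10.54 or more), was low in Ccn1, at 382 CPM against 2130 to 2935 CPM, and in Amotl2, at 297 CPM against 399 to 450 CPM. Ccn3 was lowest in hypoxia KO 4, at 1.79 CPM against 3.93 to 5.28 CPM. The part of neuronal RNA or of the score in these values was not tested.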

How the results depend on the processing

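Of 1280 values under alternatives (40 values of the 8 genes in 5 comparisons), 1213 kept their direction and their side of the threshold, counting a value that did not pass in either fit as kept whatever its sign; 42 no longer passed, 25 newly passed and 0 reversed after passing. In normoxia KO against flox 4 of the 8 genes passed, and 2 did with RLE scaling, without the filter, with only the 2 groups, with limma on RPKM and with the replicate block over all groups, and 2 to 4 when 1 library was left out; in each of the 2-gene cases Wwtr1 and Tead1 were the genes lost, and the cause was not tested. In hypoxia KO against flox 2 passed, 1 with the non-endothelial markers as a covariate, 4 with the sex genes as a covariate, without the 3 libraries with Xist and Y-linked transcripts, or with the immediate early covariate without the neuronal libraries, and 2 to 3 with 1 library left out. Between oxygen levels 2 passed in flox, 1 with only the 2 groups and 3 with the immediate early covariate without the neuronal libraries, where Wwtr1 passed (0.25 ± 0.06, edgeR adjusted p = 0.0163). In KO 0 passed, 2 with DESeq2 and 1 with the immediate early covariate, with and without the neuronal libraries, with the non-endothelial covariate, and without the 2 or the 3 libraries; leaving out 1 library gave 0 to 1. The interaction gave 0 throughout.

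Outside the normoxia genotype comparison the r of same-numbered libraries took both signs, from -0.525 to 0.402. The replicate block over all groups changed only the normoxia calls of Wwtr1 (0.39 ± 0.13, edgeR adjusted p = 0.0861) and Tead1 (0.53 ± 0.19, edgeR adjusted p = 0.106) among the 8 genes. Ccn3 in normoxia was at -1.42 ± 0.40 in that block (edgeR adjusted p = 0.0461). Ankrd1 and Ccn5 rest on few reads.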
